A study of Mus musculus with 2 samples.

Results

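The Hox genes were the rows of the expression table whose symbol is Hox followed by a, b, c or d and a number, which gave 37 of 17408 genes. Hoxa contributed 11 genes, Hoxb and Hoxc 9 each and Hoxd 8. Of the 39 such genes in RefSeq, Hoxb1 and Hoxd1 were not analysed here. The study sampled 2 libraries of single cells from mouse embryonic fibroblasts (MEFs) undergoing reprogramming to induced pluripotent stem cells (iPSCs) at day 16, in the 10x Genomics 3′ format with unique molecular identifiers (UMIs). The fibroblasts carried STEMCCA, a single transgenic cassette of the reprogramming factors that doxycycline switches on, and they were grown unsorted in mouse embryonic stem cell medium with LIF and ascorbic acid. The study describes independent STEMCCA mouse systems without the labels tying either of them to a library, so library and mouse system cannot be told apart, and the labels put both libraries in 1 group. Both libraries were therefore treated as replicates of 1 condition, although they may come from different mouse systems. There was no library of untreated fibroblasts or finished iPSCs beside them.

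Hox genes encode homeodomain transcription factors that set position along the body axis and along the limb. They lie in 4 gene clusters, called loci here to keep them apart from clusters of cells, and genes of the same number in different loci are paralogues. Within a locus the low numbers are switched on early and towards the head or the shoulder, and the high numbers late and towards the tail or the fingertips. Fibroblasts are known to keep part of the code of the place they were taken from, whereas Hox loci are held silent by Polycomb proteins in pluripotent cells. MEFs are prepared from most of an embryo body and so mix cells of many positions.

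Replicate 1 held 3109 cells and 54145377 UMIs, and replicate 2 held 3914 cells and 64654306 UMIs, with 12 barcodes present in both. Pluripotent-like cells were those with 3 or more of Utf1, Tdgf1, Tdh, Nanog and Dppa4 above 0. They made up 160 cells of replicate 1 (5.15%, exact 95% binomial interval 4.4 to 5.98, counting error only) and 397 cells of replicate 2 (10.1%, 9.21 to 11.1). All 10 pluripotency genes that the rule did not use, among them Zfp42 and Esrrb, were higher in these cells in both libraries, with a summed level of 49.5 and 56.6 against 1.4 and 1.46 in the other cells. All 11 fibroblast markers, among them Col1a1 and Pdgfra, were lower, at 2.11 and 2.2 against 33.8 and 20.8. A level is the number of UMIs per 10000 UMIs of a cell, averaged over cells. This 3′ protocol counts an end of each molecule, so levels were not divided by gene length. The pluripotent-like cells were deeper, with a median of 28353 and 26097 UMIs against 15189 and 13641.

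The loci lie at chr6:52155590-52260880 (Hoxa, minus strand), chr11:96194316-96354012 (Hoxb, plus), chr15:102921103-103036852 (Hoxc, plus) and chr2:74668310-74748442 (Hoxd, plus) in mm10, the build of the deposited table, with GENCODE M21 gene models. RefSeq promoter sequences (GRCm38.p6, from 250 bases before to 50 after the start of a transcript) were at hand for 20 of the 37 genes, in 22 entries. The entries held a median of 14.5 CpG dinucleotides in 300 bases, beside 7 over all 32851 promoters. The 250 bases upstream of Hoxb8 and of the first Hoxd11 start are shown because these genes stand on opposite sides of the split between cells described further on. Capitals mark TTTATG, searched on both strands (CATAAA on the other strand), a sequence of the kind bound by the CDX factors that act upstream of Hox genes.
Hoxb8, chr11:96281655-96281904, plus strand: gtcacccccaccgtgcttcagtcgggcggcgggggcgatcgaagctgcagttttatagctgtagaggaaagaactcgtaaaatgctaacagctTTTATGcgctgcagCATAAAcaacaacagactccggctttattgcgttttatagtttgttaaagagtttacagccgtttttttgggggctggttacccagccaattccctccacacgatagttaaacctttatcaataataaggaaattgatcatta
Hoxd11, chr2:74679308-74679557, plus strand: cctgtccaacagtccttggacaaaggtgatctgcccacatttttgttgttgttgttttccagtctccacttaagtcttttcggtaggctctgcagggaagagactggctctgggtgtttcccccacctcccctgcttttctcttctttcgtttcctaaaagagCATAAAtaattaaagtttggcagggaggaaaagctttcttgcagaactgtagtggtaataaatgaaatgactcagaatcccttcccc
TTTATG was present in 5 of the 22 Hox entries (22.7%) and in 11.9% of all promoters of this length. The entries with it were those of Hoxa7, Hoxb8, Hoxd3, Hoxd4 and the first Hoxd11 start. It was absent from the second Hoxd11 entry and from those of Hoxb4, Hoxc4, Hoxd10, Hoxd12 and Hoxd13. The sequences shown are thus not typical of either side of the split. TGATNNAT, the composite site of HOX proteins with PBX, was present in 13.6% against 8.85%, and ATGCAAAT, the octamer bound by POU factors, in none against 1.74%. The GC box GGGCGG was present in 40.9% against 35.7%. Each motif was searched on its own, so matches of different motifs may overlap, and a match is only the presence of these letters in this window.

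Hox RNA was low in pluripotent-like cells. Summed over the 37 genes, the level was 3 in replicate 1 and 2.69 in replicate 2 among other cells, and 0.27 and 0.235 among pluripotent-like cells. Pluripotent-like cells thus held 9.01% and 8.75% of the level in other cells, a difference of -2.59 ± 0.194 per 10000 UMIs (mean ± SD, n = 2 libraries), far larger than the spread between libraries. An exact sign test over 2 libraries cannot go below p = 0.5, so no p is attached to the sum. The fall showed at every locus, with 11.6% and 7.94% of the level left for Hoxa, 7.33% and 9.88% for Hoxb, 6.49% and 8.94% for Hoxc, and 9.51% and 9.26% for Hoxd. Which locus kept most differed between the libraries.

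The share left was like that of the fibroblast markers. Those kept 6.23% and 10.6% of their level, from 1.67% for Lum, a matrix proteoglycan, to 14.5% for Twist1, a mesenchymal transcription factor. Smooth-muscle markers kept 5.44% and 7.53%, and macrophage markers 2.21% and 2.7%, with 2 of 6 macrophage genes at 0. The summed epithelial markers, of which Epcam is also on the pluripotency list, were at 435% and 470% of their level in other cells. Of these 11 genes 1 was lower in both libraries, and Krt19 stood at 41.5%. The neural sum was at 339% and 320%, although 3 of its 7 genes were lower in both libraries. The sum of the 4 endothelial markers in the table was at 118% and 183%, although 2 of them were lower in both libraries. The median endothelial gene stood at 64% and Pecam1, which the study counts among pluripotency-associated genes, at 2180%. The Hox share was slightly higher in replicate 1 and the fibroblast share higher in replicate 2. What part of the Hox RNA came from RNA of other cells in the droplets was not tested.

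In the limma comparison of the 4 profiles (pluripotent-like and other cells of each library, library as a term, log2 of the level plus 0.1), 18 of the 37 Hox genes passed the minimum mean level of 0.02 and all 18 were lower at an adjusted p under 0.05. Over all 11253 genes tested, 71.2% were called, 39.5% lower and 31.7% higher. A Hox gene could pass the minimum only through the cells in which it was high, so the count of 18 is a description of the more abundant members. Their median log2 change was -1.02, against -0.07 over all genes tested (-2.23 against -0.11 at a pseudocount of 0.02 and -0.16 against -0.01 at 1), and it ranged from -1.92 to -0.44 with standard errors of 0.07 to 0.1. With no minimum level, 33 of the 37 were lower, Hoxc13 was higher, and Hoxb13, Hoxc12 and Hoxd3 were not called, beside 54.3% of 17408 genes called, 30.2% lower and 24.1% higher. A pseudocount of 0.02 in place of 0.1 gave the same numbers of Hox genes, beside 55.9% of all genes called, 31.2% lower and 24.7% higher. Fold changes on this scale understate the change of genes with low levels.

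**Figure D1:**
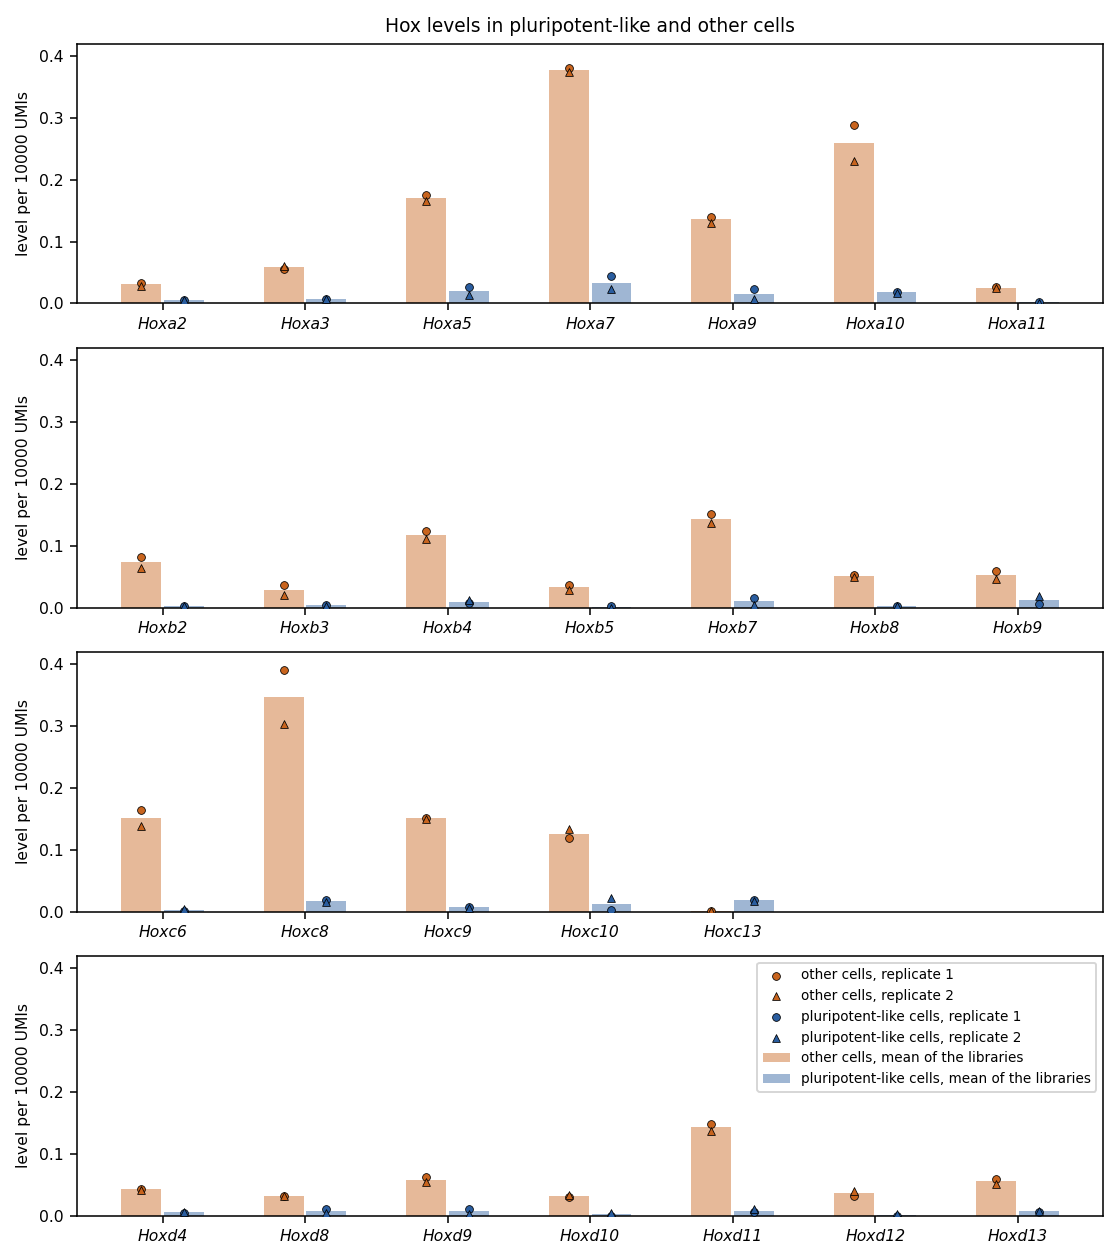
Level per 10000 UMIs of the 25 Hox genes at 0.02 or more in other cells and of Hoxc13 (y axis, linear, same range in each panel), 1 panel per locus from low to high paralogue number. Bars are means of the libraries, circles are replicate 1 and triangles replicate 2, in orange for other cells and blue for pluripotent-like cells; Hoxa7 and Hoxc8 stand highest in other cells at means of 0.378 and 0.347, and Hoxc13 is the member whose blue points, 0.0187 and 0.017, both lie above the orange.

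At the Hoxa locus the most abundant members were Hoxa7, Hoxa10, Hoxa5 and Hoxa9. Hoxa7, a gene of the trunk, stood at 0.381 and 0.374 in other cells and at 0.0437 and 0.0241 in pluripotent-like cells, a log2 change of -1.84 ± 0.1 (SE; limma, adjusted p = 2.1e-06). Hoxa10, which patterns the lower trunk and the upper limb segments, stood at 0.289 and 0.23 against 0.019 and 0.0174 (-1.6 ± 0.1, limma adjusted p = 4.1e-06). Both genes were lower in the pluripotent-like cells of each library. Hoxa5, which acts in lung and cervical patterning, fell from 0.175 and 0.166 to 0.0264 and 0.0141, and Hoxa9 from 0.14 and 0.131 to 0.0242 and 0.00756. Their log2 changes were -1.17 ± 0.09 and -1.03 ± 0.09. Hoxa3 also passed the minimum and was lower (-0.56 ± 0.08), and the remaining Hoxa genes stood at 0.00688 to 0.0335 in other cells.

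At the Hoxb locus no member reached the levels of Hoxa7. Hoxb7 stood at 0.152 and 0.137 in other cells and at 0.0155 and 0.00481 in pluripotent-like cells (-1.15 ± 0.09, limma adjusted p = 1.1e-05). Hoxb4, which marks the anterior trunk, stood at 0.124 and 0.111 against 0.00712 and 0.0118. Both were thus lower in each library, and so was Hoxb2, which patterns the hindbrain and cranial nerves, at 0.0818 and 0.064 against 0.00209 and 0.00229. Hoxb9 showed the smallest called change of the locus, -0.45 ± 0.09 (limma adjusted p = 0.0025), from 0.0597 and 0.0467 to 0.00618 and 0.0181. Its value in pluripotent-like cells of replicate 2 rested on 17 UMIs. Hoxb8 was lower (-0.57 ± 0.07), Hoxb3, Hoxb5 and Hoxb6 stood at 0.0364 or less in other cells.

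At the Hoxc locus Hoxc8, a gene of the thoracic region, had a change within 1 SE of that of Hoxa7. It stood at 0.39 and 0.304 in other cells and at 0.0193 and 0.0161 in pluripotent-like cells, a log2 change of -1.92 ± 0.1 (limma adjusted p = 2e-06). Hoxc6, its 3′ neighbour and also a thoracic gene, kept the smallest share of its level among the 18 tested members, going from 0.164 and 0.138 to 0.00163 and 0.00443, or 1 and 5 UMIs. Hoxc9 stood at 0.152 and 0.15 against 0.00756 and 0.00643, and Hoxc10, a gene of the lumbar region and hindlimb, at 0.119 and 0.134 against 0.00294 and 0.0221. The 4 genes were lower in each library, with log2 changes of -1.28 ± 0.09 for Hoxc6, -1.23 ± 0.08 for Hoxc9 and -1.01 ± 0.09 for Hoxc10. Hoxc4, Hoxc5 and Hoxc11 stood between 0.00593 and 0.0238 in other cells, and Hoxc12 had 0 and 4 UMIs there and none in pluripotent-like cells.

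At the Hoxd locus, whose high-numbered genes pattern digits, external genitalia and the tail end, Hoxd11 led. It stood at 0.148 and 0.137 in other cells and at 0.00537 and 0.00999 in pluripotent-like cells (-1.17 ± 0.09, limma adjusted p = 1.1e-05). Hoxd9 stood at 0.0619 and 0.0544 against 0.0112 and 0.00274, and Hoxd13 at 0.0594 and 0.0514 against 0.00637 and 0.00764. Both were lower in each library, with log2 changes of -0.56 ± 0.08 and -0.54 ± 0.08. Hoxd4 fell from 0.0437 and 0.0416 to 0.00487 and 0.00521 (-0.44 ± 0.07). Hoxd8, Hoxd10 and Hoxd12 stood between 0.0303 and 0.0395 in other cells, under the minimum once averaged with pluripotent-like cells, and Hoxd3 had 4 and 3 UMIs there.

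Hoxc13, which acts in hair and nail, was the exception, and it was singled out after its values were seen. Pluripotent-like cells held 6 UMIs in replicate 1 and 15 in replicate 2, whereas the far larger number of other cells held 9 and 5. The ratio of UMIs per depth was 7.15 (exact 95% interval 2.1 to 22.5) and 15.4 (5.33 to 54.3), intervals that cover counting error only. With no minimum level the log2 change was 0.22 ± 0.03 (limma, adjusted p = 0.0011), higher in both libraries. All of the UMIs in pluripotent-like cells came from cells with 4 or 5 of the 5 markers, in 6 cells of replicate 1 and 14 of replicate 2. Through this gene, the paralogues numbered 13 together kept 31.6% and 41.9% of their level in other cells, while those numbered 6 kept 0.884% and 3.92%. Hoxb13, its paralogue, had 0 and 3 UMIs in pluripotent-like cells and 4 and 1 in other cells, and was not called (adjusted p = 0.51 with no minimum level).

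The loci contributed unequally to the Hox RNA of other cells, with similar shares in both libraries. Hoxa made up 38.6% and 39.9% of it, Hoxc 29.2% and 28.3%, Hoxb 18.6% and 17.3%, and Hoxd 13.6% and 14.5%. By number, genes 1 to 4 made up 14.1% and 13.9%, genes 5 to 8 47.6% and 46.9%, and genes 9 to 13 38.3% and 39.3%. The middle of the loci thus carried the largest share, mainly through Hoxa7 and Hoxc8. The residual RNA of pluripotent-like cells rested on 117 and 235 UMIs, and its shares spread more between libraries, at 46.9% and 29.9% for genes 5 to 8 and 39.9% and 51.4% for genes 9 to 13.

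Hox RNA did not fall evenly with the number of pluripotency markers. Cells with 0, 1 and 2 of the 5 markers held 3.18, 2.55 and 2.78 Hox UMIs per 10000 in replicate 1 and 2.8, 2.43 and 2.19 in replicate 2. Cells with 3 markers stood between the groups, at 1.75 in replicate 1 and 0.569 in replicate 2, on only 13 and 31 cells. Cells with 4 markers were at 0.12 and 0.291 and cells with 5 at 0.143 and 0.177. The step thus fell between 2 and 4 markers in both libraries.

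Depth moved with the number of markers, from a median of 14370 and 13145 UMIs in cells with none to 29964 and 28312 in cells with all 5. Each cell was therefore also thinned to 3000 UMIs, which left out no cell. A Hox UMI was then seen in 55.6% (exact 95% interval 53.8 to 57.4) and 51.2% (49.5 to 52.9) of other cells, and in 8.12% (4.4 to 13.5) and 5.54% (3.51 to 8.27) of pluripotent-like cells. Without thinning these shares were 93.1% and 91.3% against 31.9% and 33.8%. The class with the greater depth thus had the smaller share of cells with a Hox UMI, with and without thinning. What part depth played in the difference was not tested. Among cells of at least 20000 UMIs the summed level was 2.56 and 2.46 in other cells and 0.247 and 0.219 in pluripotent-like cells. A cell outside the pluripotent-like class had UMIs of a median of 3 different Hox genes, and of up to 16 in replicate 1 and 13 in replicate 2.

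**Figure D2:**
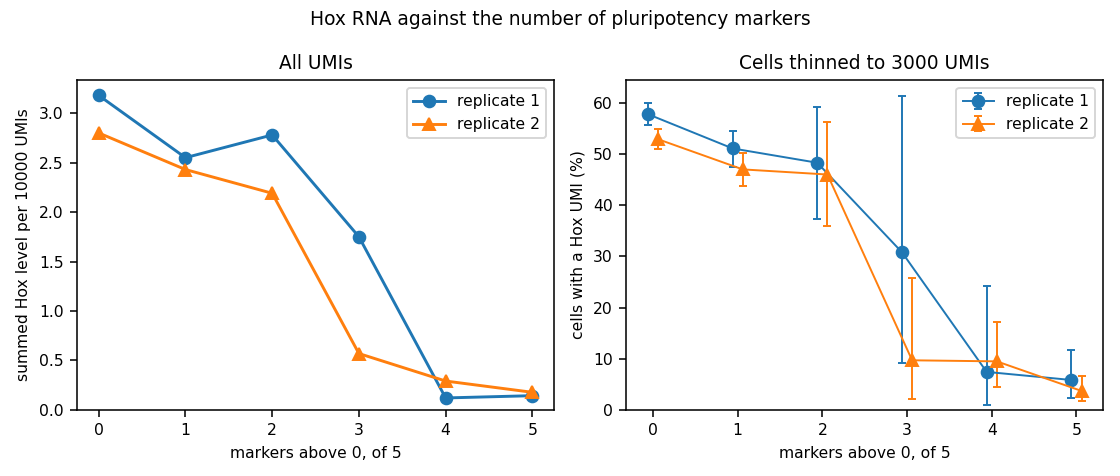
Hox RNA against the number of the 5 pluripotency markers above 0 in a cell (x axis), for replicate 1 (circles) and replicate 2 (triangles). Left, summed Hox level per 10000 UMIs; right, percent of cells with a Hox UMI after thinning to 3000 UMIs, with exact 95% binomial intervals (counting error only), 57.8% and 52.9% with 0 markers and 5.83% and 3.69% with 5.

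Among cells that were not pluripotent-like, Hox genes were in use in each of the larger cell clusters, in different combinations. These cells were clustered together over both libraries with all Hox genes left out of the clustering, and 16 cell clusters held 30 or more cells in both libraries. Each is named here by its number and leading genes. Levels over cell clusters are a description with no test, and gene models that overlap on the same strand make some single members uncertain. The Hoxc5 model overlaps those of Hoxc6, Hoxc8, Hoxc9 and Hoxc10, the Hoxa3 model those of Hoxa4, Hoxa5 and Hoxa6, and the Hoxd3 model that of Hoxd4. How the counting shared reads between them is not known here.

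The summed level was highest in cell cluster 12 (Mylk, Sprr2k), at 4.8 and 4.74, followed by cell cluster 7 (Rgcc, Wisp2, Timp3) at 4.2 and 4.11. Cell cluster 4 (Mmp11, Dcn, Gpx3) followed at 4.04 and 3.7 and the dividing cell cluster 14 (Top2a, Mki67, Prc1) at 4.04 and 3.55, which did not differ from each other beyond the spread between libraries. The lowest were cell cluster 8 (Nxpe2, Tdh, Aldoc) at 2.02 and 2.04 and cell cluster 0 (Dmrtc2, Tac2, Rnase1) at 1.82 and 2.28, which overlapped. None of the 16 came near the 0.27 and 0.235 of pluripotent-like cells. Cell cluster 15 (Igfbpl1, Cytl1, Ly6h) had a fibroblast marker sum of only 3.85 and 3.81, under that of 106 and 72.6 in cell cluster 11 (Spp1, Mmp3, Col10a1), and yet a Hox sum of 2.57 and 2.7 beside 3.19 and 3.15.

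What differed was the locus in use. Hoxb and Hoxc RNA was high and Hoxd RNA low in cell clusters 12, 7, 4 and 1 (Rarres2, Dkk2, Cyp11a1). Hoxc stood at 2.08 and 2.11 in cell cluster 12, at 1.76 and 1.87 in cell cluster 7 and at 1.58 and 1.45 in cell cluster 1, and Hoxd there at 0.206 and 0.301, 0.267 and 0.254, and 0.156 and 0.18. Hoxd RNA was above Hoxc RNA in both libraries in cell clusters 8, 15, 6 (Pcp4, Wfdc17, 2610528A11Rik), 9 (Mest, Smoc2, Col2a1) and 11. Cell cluster 8 had Hoxd at 0.702 and 0.775 and Hoxc at 0.126 and 0.216, a ratio of 5.58 and 3.58. Cell cluster 15 had a ratio of 2.14 and 7.32. In cell cluster 0 the libraries disagreed, with Hoxd at 0.431 and Hoxc at 0.322 in replicate 1 and at 0.185 and 0.588 in replicate 2.

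**Figure D3:**
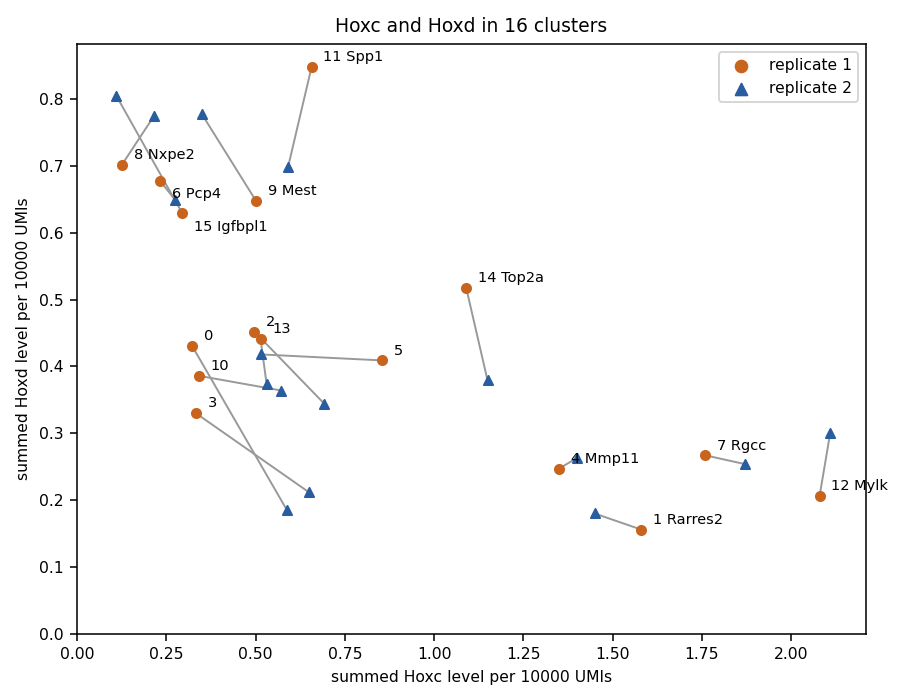
Summed Hoxc level (x axis) against summed Hoxd level (y axis), both per 10000 UMIs, in 16 clusters of cells outside the pluripotent-like class, labelled by number and, for the outer ones, a leading gene. Circles are replicate 1, triangles replicate 2, joined by a line per cell cluster; cell clusters 12, 7, 1 and 4 lie to the lower right and 8, 6, 15, 9 and 11 to the upper left.

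Single members spread over cell clusters to very different degrees. Hoxc8 ranged 20.9-fold, from 0.0736 and 0.0345 in cell cluster 15 to 1.17 and 1.08 in cell cluster 12. Hoxc6 ranged 33.6-fold between the same cell clusters, from 0.0143 and 0.0128 to 0.471 and 0.44. Both were ordered alike in the libraries, with a Pearson r between libraries over the 16 cell clusters of 0.97 and 0.95 (a description over cell clusters that share libraries).

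Hoxb genes peaked in cell cluster 12 as well. Hoxb4 stood there at 0.325 and 0.343, against 0.0269 and 0.029 in cell cluster 6, and Hoxb9 at 0.198 and 0.391, against 0.00891 and 0.00586 in cell cluster 8. Hoxc9 peaked in cell cluster 4, at 0.272 and 0.36, and Hoxc10 in cell cluster 1, at 0.246 and 0.289, so the locus was not used as a block. For Hoxc9 the next cell clusters in order, 1 at 0.319 and 0.264 and 12 at 0.218 and 0.364, overlapped with cell cluster 4.

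The high-numbered Hoxd genes had the opposite order. Hoxd11 stood at 0.322 and 0.368 in cell cluster 11, which overlapped with the next, cell cluster 8 at 0.316 and 0.329, and at 0.0136 and 0.0206 in cell cluster 12. Hoxd12 peaked in cell cluster 8, at 0.131 and 0.137, and had 0.00214 and 0 in cell cluster 12. Hoxd13 was highest by the mean in cell cluster 11, at 0.263 and 0.0979, where the libraries lay far apart and cell cluster 9 was higher in replicate 2, at 0.136. It stood at 0.00676 and 0 in cell cluster 1. Hoxd8, at the other side of the locus, was highest by the mean in cell cluster 12, at 0.0708 and 0.104, with cell cluster 7 at the same level in replicate 1.

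Hoxa genes had different peaks, which the libraries shared only in part. By the mean of the libraries Hoxa5 and Hoxa7 were highest in cell cluster 4, Hoxa5 at 0.438 and 0.261 and Hoxa7 at 0.617 and 0.498, although in replicate 2 Hoxa7 was higher in cell cluster 15, at 0.527. Hoxa9, Hoxa10 and Hoxa11 were highest in cell cluster 6 in replicate 1 and in cell cluster 15 in replicate 2. Hoxa10 stood at 0.634 and 0.297 in cell cluster 6 and at 0.551 and 0.394 in cell cluster 15, and Hoxa11 at 0.0859 and 0.0521 and at 0.0486 and 0.0784. Hoxa7 varied least of all the abundant members, 2.11-fold, and its order over cell clusters was hardly shared by the libraries (r = 0.2), nor was that of Hoxa5 (r = 0.27).

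**Figure D4:**
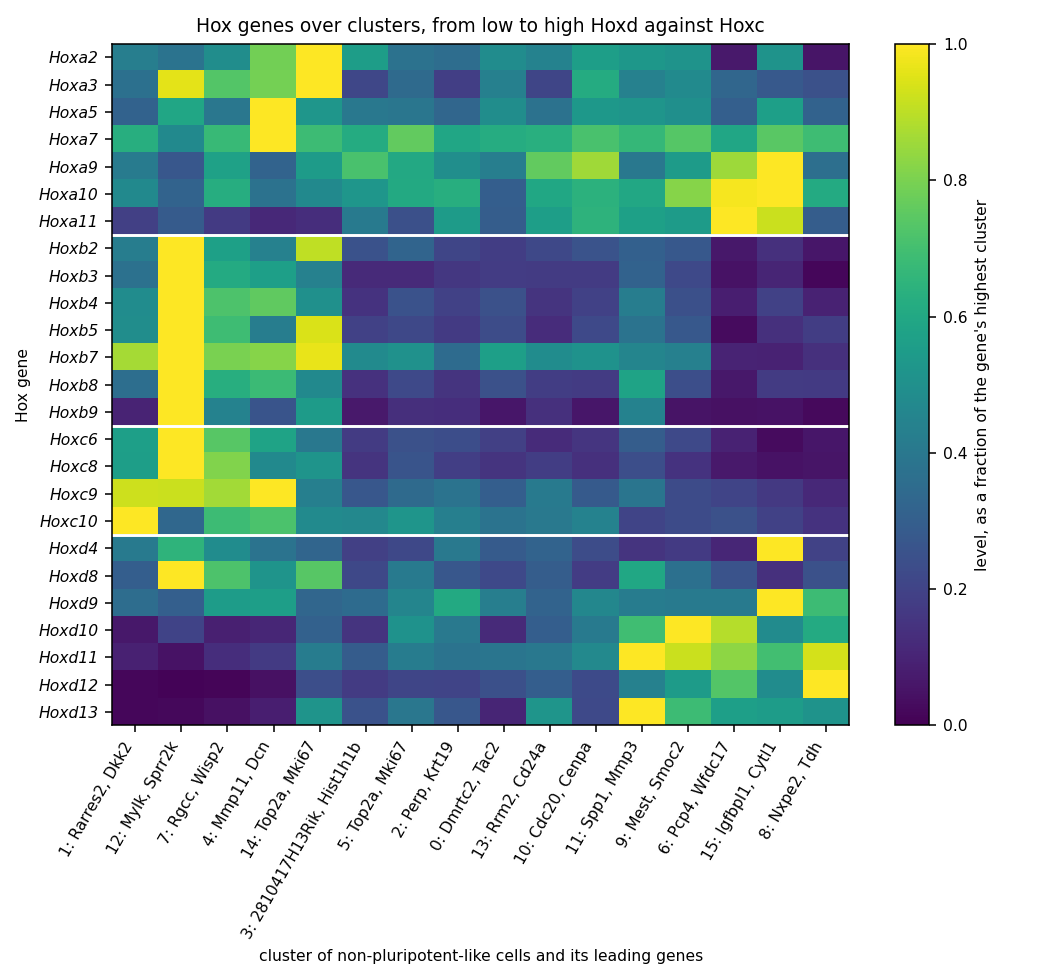
Mean level of the 25 Hox genes with a level of at least 0.02 in other cells (rows, by locus and number) in the 16 cell clusters (columns, ordered from low to high Hoxd against Hoxc), as a fraction of the highest cell cluster of each gene (colour scale from 0 to 1). Hoxb and Hoxc rows are brightest to the left and Hoxd10 to Hoxd13 to the right, while the Hoxa7 row varies least.

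Over these 16 cell clusters, levels of Hoxb genes correlated with each other (median r = 0.87 over 21 pairs) and with Hoxc genes (median 0.84 over 28 pairs), and Hoxc genes with each other (median 0.8 over 6 pairs). Pairs of a Hoxc with a Hoxd gene had a median r of -0.55 over 28 pairs (-0.78 to 0.87), and those of a Hoxb with a Hoxd gene -0.38 over 49 pairs (-0.8 to 0.95). The positive end was that of Hoxd8 and Hoxd4, with r of 0.95 for Hoxb9 with Hoxd8 and 0.87 for Hoxc8 with Hoxd8. Pairs within Hoxa had a median of 0 and ranged from -0.49 to 0.81. These are descriptions over cell clusters that come from the same libraries.

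From cell to cell, pairs of Hox genes were compared within cell clusters. For each pair of the 25 genes, the number of cells with a UMI of both was set beside the number computed if both were detected independently, given each cell's depth, its library and its cell cluster. All 21 pairs within Hoxb and all 6 within Hoxc were found together more often than computed in both libraries, with median ratios of 1.71 and 1.56. Of the 28 pairs of a Hoxb with a Hoxc gene, 23 were, with a median of 1.285. Of the 28 pairs of a Hoxc with a Hoxd gene none was and 22 were found together less often in both libraries, with a median of 0.444. Of 47 pairs of a Hoxb with a Hoxd gene 31 were found together less often and 10 more often, all 10 of them with Hoxd4 or Hoxd8 (median 0.366, from 0.098 to 1.75). Within Hoxd 14 of 21 pairs were found together more often and 3, of Hoxd4 with Hoxd11, Hoxd12 and Hoxd13, less often (median 1.69, from 0.18 to 2.96).

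The high-numbered Hoxd genes were thus split from the Hoxb and Hoxc genes. The 3 sets used to sum this up were chosen after these values were seen and are given with no test. A UMI of Hoxb2 to Hoxb9 was present in 1089 and 1178 other cells, of Hoxc4 to Hoxc10 in 1249 and 1448, and of Hoxd10 to Hoxd13 in 704 and 797. The Hoxb and Hoxc sets shared 723 and 803 cells, where 588 and 620 were computed. Hoxb and the high Hoxd set shared 84 and 72 cells, where 210 and 219 were computed, a ratio of 0.399 and 0.329. Hoxc and the high Hoxd set shared 104 and 105 cells, where 236 and 267 were computed, a ratio of 0.441 and 0.394. The low Hoxd set, Hoxd3 to Hoxd9, was near 1 with both, at 0.998 and 1.03 with Hoxb and at 0.933 and 0.965 with Hoxc. As sets, Hoxd10 to Hoxd13 thus had lower ratios than Hoxd3 to Hoxd9 with both. Hoxd9 by itself was also below 1, at a median of 0.752 over its pairs with Hoxb genes and 0.748 with Hoxc genes.

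Some pairs were all but exclusive. Hoxc6 and Hoxd12 shared 1 and 3 cells, where 18.1 and 20.4 were computed, and Hoxb5 and Hoxd13 shared 1 and 1, where 9.65 and 10.8 were. Hoxa11 and Hoxb8 shared no cell in either library, where 6.59 and 7.18 were computed. Hoxb8 and Hoxd11, whose promoters are shown above, shared 11 and 9 cells where 25.1 and 29.5 were computed. At the other end, Hoxd12 and Hoxd13 shared 39 and 54 cells where 18.8 and 23.9 were computed, and Hoxc9 and Hoxc10 shared 165 and 200 where 65.9 and 86.9 were. The neighbours Hoxd4 and Hoxd8, at 37 and 22 against 10.8 and 9.14, had the highest ratio of all, 2.96, a pair that shares the antisense partner Hoxd3os1.

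The Hoxa genes lay along this split in the order of their numbers, an order that was noticed in these values and not tested. The median ratio with the Hoxb genes fell from Hoxa2 at 1.75 through Hoxa3 at 1.39, Hoxa5 at 1.37, Hoxa7 at 0.978, Hoxa9 at 0.684 and Hoxa10 at 0.526 to Hoxa11 at 0.267. The median ratio with Hoxd10 to Hoxd13 rose in the same order, from 0.276 through 0.48, 0.656, 0.924, 1.19 and 1.27 to 1.38. Hoxa7 was thus found with either side about as often as computed, with ratios from 0.81 to 1.26 over its 24 pairs. Within Hoxd the same order showed with the Hoxb genes, from Hoxd4 at 1.38, Hoxd8 at 1.15 and Hoxd9 at 0.752 to 0.34 for Hoxd10, 0.269 for Hoxd11, 0.17 for Hoxd12 and 0.194 for Hoxd13, the last of which did not follow it. Hoxc10 was found with Hoxb genes at a median of 0.994, against 1.29 to 1.38 for Hoxc6, Hoxc8 and Hoxc9. Cells that were captured as doublets add shared cells to every pair, and no doublet caller was run.

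**Figure D5:**
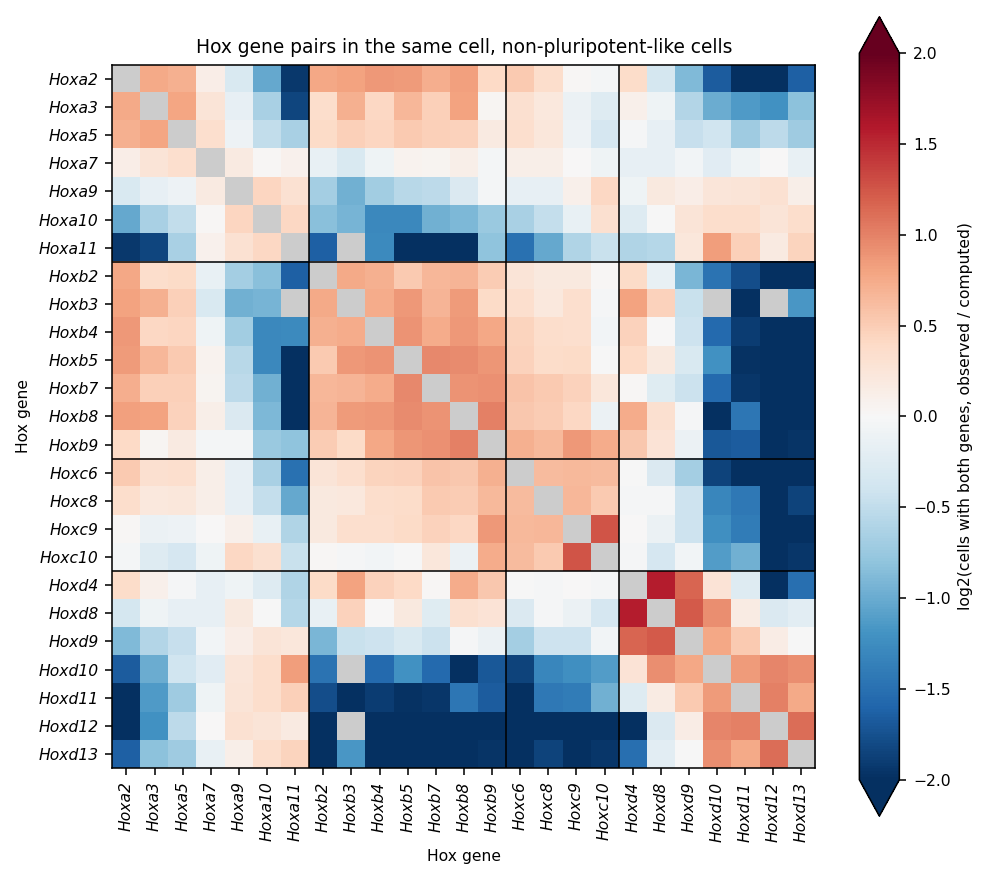
Pairs of 25 Hox genes (both axes, by locus and number) in single cells outside the pluripotent-like class, coloured by log2 of the cells with both genes over the number computed from depth, library and cell cluster, both libraries pooled. Red pairs shared more cells than computed and blue pairs fewer, colours end at 2 log2 units either way, and the diagonal and pairs with fewer than 10 computed cells are grey; Hoxd10 to Hoxd13 are blue against every Hoxb and Hoxc gene with enough computed cells.

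Most Hox cofactors fell with the Hox genes in pluripotent-like cells. Of 9 cofactors listed, which bind DNA together with HOX proteins, 8 passed the minimum level, 6 were lower and none higher, also at an unadjusted p under 0.05 in limma, beside 39.5% of all genes tested lower and 31.7% higher. As for the Hox genes, members of this list and the next could pass the minimum through the cells in which they were high, so these counts are descriptions. Meis2 stood at 0.416 and 0.439 in other cells and 0.0807 and 0.0779 in pluripotent-like cells (-1.56 ± 0.09, limma adjusted p = 3.4e-06), and Pbx3 at 0.262 and 0.265 against 0.0838 and 0.0596 (-1.09 ± 0.1). Pbx4 and Pknox1, named after their values were seen, were not called, with log2 values of 0.18 ± 0.1 and 0.19 ± 0.09.

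Of 44 transcription factors of limb, trunk and other positions, 22 passed the minimum and 20 of them were lower, beside the same 39.5% of all genes tested. Prrx1, a factor of limb and body wall mesenchyme, stood at 1.26 and 1.16 against 0.0518 and 0.0682 (-3.04 ± 0.1, limma adjusted p = 3.6e-07), Prrx2 changed by -2.39 ± 0.11 and Tbx18 by -1.84 ± 0.09. Tbx3, which acts in the limb and is also part of the naive pluripotency network, was the member that was higher, at 0.43 and 0.458 against 0.0479 and 0.041 (1.91 ± 0.09, limma adjusted p = 1.6e-06). Gata6, also named after its values were seen, was not called (-0.04 ± 0.09), with 0.0155 and 0.0224 against 0.00811 and 0.0389.

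Regulators of Hox genes went both ways. Of 30 listed, 26 were in the table and 18 passed the minimum, of which 10 were higher, 3 lower and 5 not called, a share called close to the 71.2% over all genes tested. Jarid2, Eed and Ezh2 of Polycomb repressive complex 2 were higher by 2.43 ± 0.09, 1.81 ± 0.09 and 1.71 ± 0.08, Jarid2 at 1.33 and 1.49 against 0.184 and 0.177. Kmt2a, a methyltransferase that maintains Hox expression, was lower (-0.79 ± 0.1, limma adjusted p = 0.00018), at 0.2 and 0.254 against 0.466 and 0.461. Members of Polycomb repressive complex 1 were split, with Ring1 and Bmi1 lower by -0.63 ± 0.09 and -0.52 ± 0.08, Cbx7 and Rnf2 higher by 1.41 ± 0.1 and 0.44 ± 0.11, and Cbx2 not called (0.06 ± 0.08). Cbx7, Rnf2 and Cbx2 were named after their values were seen. The median log2 change was -0.86 for cofactors, -0.69 for positional factors and 0.41 for regulators, beside -0.07 over all genes.

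Non-coding genes of the Hox loci fell too where they passed the minimum level. Hotairm1, a non-coding gene of the Hoxa locus, stood at 0.267 and 0.249 in other cells and at 0.0382 and 0.0357 in pluripotent-like cells (-1.39 ± 0.09, limma adjusted p = 5.8e-06). It was lower in the pluripotent-like cells of each library. Hoxd3os1 was lower as well, at 0.0651 and 0.0722 against 0.00976 and 0.00945 (-0.62 ± 0.08). Hoxaas3, Hoxb3os and Hoxb5os stood at 0.0304 or less in other cells and did not pass it, and Hottip and Haglr at 0.00363 or less. No source at hand states if reads were counted by strand. Reads of Hoxaas3 and Hoxa3 to Hoxa7, of Hoxa11os and Hoxa11, of Hoxb3os and Hoxb2 or Hoxb3, of Hoxb5os and Hoxb5 or Hoxb6, and of Hoxd3os1 and Hoxd3, Hoxd4 or Hoxd8 may thus not be told apart.

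The libraries were close for most members outside the pluripotent-like class. The largest differences on the log2 scale were those of Hoxc8 (-0.28, replicate 2 over replicate 1), Hoxa10 (-0.24), Hoxb3 (-0.18) and Hoxb2 (-0.15, as for Hoxc6), all higher in replicate 1. With 1 library each, this difference has no replicate check.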

How the data were processed

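The deposited table held natural log values, ln(1 + UMIs of a gene / UMIs of the cell x 10000), which per the labels and the study's methods the authors made with Cell Ranger 2.1.1 on mm10 and with Seurat after filters on genes and mitochondrial RNA per cell. The cells in the table held 1508 to 5987 genes and at most 8.99% mitochondrial RNA. Whole UMI counts were recovered for 100% of values (tolerance 0.01), which gave the depth. Values were returned to the linear scale and averaged over cells per class and library. limma 3.58.1 (R 4.3.3) was run on log2(mean + 0.1) of the 4 profiles, with class and replicate library as factors, a trend in eBayes and a minimum mean of 0.02, and p-values were adjusted after Benjamini and Hochberg across every tested gene. Libraries, not cells, were the replicates. Although the study names independent mouse systems, the labels do not tie them to libraries. The p-values therefore refer to these libraries only. With the library term in the fit, they weigh the class difference against how far it varied between the libraries. That leaves 1 residual degree of freedom per gene. eBayes drew the spread of each gene towards that of genes of like level, so the p-values rest in part on spread shared over genes. The fit was also run on simulated profiles in which 200 genes were changed and 10976 were tested. It recovered 100% of the simulated rises and 94% and 86% of the falls, fewer of the larger falls, with 3.06% of calls false. Far fewer genes changed there than were called in these data, so these rates need not hold here. Cells were clustered with scanpy 1.11.5 and leidenalg 0.10.2 (2000 variable genes, 30 components, 15 neighbours, resolution 1) without Hox and sex-linked genes. No doublet caller was run. Independent detection was computed with a Poisson rate set so that each gene's number of detecting cells in each cell cluster and library was met. The members and lists were chosen with earlier results of these data known.

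Library totals were 54145377 and 64654306 UMIs, and cells held 4753 to 60990 UMIs. Genes named with values were the 4 most abundant members of each locus, members higher in pluripotent-like cells, non-coding genes of the loci, the 3 largest called changes each way in each list (3 or fewer where fewer were called) and, per locus, the 5 genes most alike over cell clusters. Alternatives were other pseudocounts, minimum levels, class definitions, profiles and clusterings, each library left out, and fits without the library term or the trend. Some alternatives were chosen after seeing the data: no minimum level with a pseudocount of 0.02, the cluster of pluripotent cells, all those of the co-detection, of the marker steps and of the gene lists. A few results that this rule names are not reported here.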

Additional observations from a re-analysis of the deposited data

How the results depend on the processing

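The 4 most abundant members of each locus stayed lower in 227 of 227 values. These covered the alternatives that could test them and each library left out, and the members were called wherever there was a test. The members were picked by their level in other cells and the alternatives reuse the same cells, so this count is a description. The fit with no replicate block, that is without the library term, gave the same 18 lower calls. With a minimum level of 0.1, only 3 members were tested and all 3 were lower, and 7 positional factors were lower in place of 20. With 2 or more markers, 22 of 24 members tested were lower. Their median log2 change was -0.49 in place of -1.02, beside -0.06 over all genes tested. The share of all genes called is not given here for the minimum of 0.1 or for 2 or more markers, so these counts are descriptions. With no minimum, 33 members were lower and 1 higher, at either pseudocount, and 5 regulators in place of 3 were lower. The difference of the summed level was -1.96 with 2 or more markers and -2.28 in cells of at least 20000 UMIs, against -2.59, and -2.73 to -2.45 leaving out a library. Summed UMIs put genes 1 to 4 at 13.7% and genes 9 to 13 at 39.5% of Hox RNA. The highest sum over cell clusters, 4.77, was 4.66 at resolution 0.5 and 4.6 when thinned, and the lowest, 2.03, was 2.21 at resolution 0.5, 1.78 at resolution 2, 1.75 with Hox genes kept in the clustering and 2.05 when thinned; leaving out a library gave 1.82 to 2.04. The co-detection ratios (1.26 for Hoxb with Hoxc, 0.364 for Hoxb with high Hoxd, 0.417 for Hoxc with high Hoxd) were 1.44, 0.261 and 0.297 without cell clusters in the computed number, and the first was 1.21 with Hox genes kept. The causes were not tested. Members under about 10 UMIs in pluripotent-like cells have levels that counting error alone can move severalfold.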

Other observations

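Genes outside the Hox family were searched for patterns like those of each locus over the 32 profiles of 16 cell clusters in 2 libraries (log2 of the level plus 0.1, 7179 genes with a mean of at least 0.1), as a description over profiles that share cells' origin and libraries. For Hoxb the highest Pearson r were those of Tfpi, an inhibitor of coagulation (0.93), Lpl, lipoprotein lipase (0.9), Zeb2, a transcription factor of mesenchyme (0.88), Tinagl1 (0.87) and Col15a1, a basement membrane collagen (0.87). For Hoxc they were those of Grb10, an imprinted adaptor of growth factor receptors (0.92), the complement gene C3 (0.88), Vamp5 (0.88) and Rab7b (0.88). For Hoxd they were those of Mecom, a zinc-finger transcription factor (0.86), Eps8 (0.82), Scmh1, a Polycomb group member (0.82), Kank1 (0.8) and Palmd (0.78). For Hoxa they were lower, led by Tob2 (0.76) and Tnrc6c (0.71), then Tmem158 (0.66), Srgap2 (0.65) and Pou2f1 (0.64).

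The 4 small cell clusters were too few in a library to be compared. Cell cluster 16 (Epcam, Gpx2, Ly6d) had 65 and 8 cells and a Hox sum of 2.44 and 1.06. Cell cluster 17 (Trf, Saa3, Gm12840) had 1 and 41 cells, with 3.4 in replicate 2. Cell cluster 18, whose leading genes Gap43 and Sox10 are those of Schwann and neural crest cells, had 16 and 1 cells and a sum of 3.25 in replicate 1, with Hoxb at 1.16. Cell cluster 19, led by Lyz2, Pf4 and C1qa, genes of macrophages, had 4 and 9 cells and a sum of 0 and 0.32.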
